A study of Mus musculus with 8 samples.

Results

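The small (40S) subunit of the cytosolic ribosome binds mRNA and reads its codons. It consists of ribosomal RNA and a set of proteins, most of them named Rps, which are put on the RNA in the nucleolus and, for the last ones, in the cytoplasm. Their mRNAs are among the most abundant in a cell, and most begin with a C inside a run of pyrimidines, the 5′ TOP element, through which mTOR and the RNA-binding protein LARP1 control how much they are translated. *Eif6*, the gene reduced in these mice, encodes an initiation factor that binds the large (60S) subunit and keeps it from joining the 40S subunit before initiation.

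Genes were taken as members if their symbol, found through the RefSeq accession of the probe, starts with Rps and a digit or is *Rpsa* or *Fau*. The Rps6k kinases, *Rps19bp1* and pseudogenes marked as such in their symbol were left out. This gave the 34 genes reported here, of 20660 named on the array, on 62 probes. Of the 34, 32 are ordinary subunit proteins or the paralogue *Rps27l*. The other two met the rule by name only, since *Rps4l* is listed by RefSeq as a transcribed pseudogene and *Rps23rg1* is a retrogene of *Rps23*. Transcripts were measured on 8 two-colour Agilent mouse arrays, 4 of *gastrocnemius* and 4 of *tibialis anterior* (TA), in *Eif6*+/- mice, which are heterozygous for an inactivated *Eif6* gene, and in their WT littermates, all male C57BL6 mice aged 8 to 16 weeks. Each array set 1 *Eif6*+/- mouse, labelled with Cy5, against 1 WT mouse, labelled with Cy3, so that the log2 ratio of the dyes is that of the genotypes. A gene was called if its log2 ratio differed from 0 at a Benjamini-Hochberg adjusted p under 0.1 (limma, over all probes tested in the muscle). The dyes were never swapped, so within either muscle an effect of the dye and one of the genotype cannot be told apart. A dye effect that is constant for a probe drops out of the difference between the muscles. All arrays shared a slide on which each muscle took up its own row, and row and muscle cannot be told apart.

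*Eif6* itself had log2 ratios of −0.97, −1.15, −0.89 and −1.06 on *gastrocnemius* pairs 1 to 4 (mean −1.02 ± 0.112, SD, n = 4 pairs, adjusted p = 0.0241). In TA they were −1.22, −1.03, −0.95 and −0.80 (mean −0.999 ± 0.174, SD, n = 4 pairs, adjusted p = 0.0109). All 8 arrays therefore had less *Eif6* signal in the *Eif6*+/- mouse, as labelled. Whether this probe lies inside the disrupted stretch was not known from the files used here.

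The 32 proteins had mean log2 signals from 12.3 to 16.2, and *Rps4l* (8.2) and *Rps23rg1* (8.0) were far dimmer. Each gene was represented by its brightest probe, and that probe passed the filter on dim spots for all 34 genes in both muscles, so that no member was lost to it. Of the 62 probes, 58 were tested in *gastrocnemius* and 59 in TA. Over the whole array, 38.8% to 48.6% of probes stood well above background in a given channel, and no spot was saturated. Ribosomal protein genes have many processed pseudogene copies, and a probe may also bind transcripts of those; such signal could not be separated here. The number of arrays, 4 per muscle, limits the precision of every value.

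In *gastrocnemius*, 4 of the 34 genes were lower in *Eif6*+/- muscle and none was higher. They were *Rps15*, *Rps4x*, *Rps15a* and *Rps9*. The share called lower was 11.8%, against 5.53% of the 12615 genes tested in this muscle. No member was called higher, against 9.86% of all genes. The median log2 ratio of the 34 genes was −0.04, with a range from −0.36 (*Rps15*) to 0.25 (*Rps24*), and that of all genes was 0.02. A further 4 members, *Rps2*, *Rps16*, *Rps19* and *Rps23*, had an unadjusted p under 0.05 without passing the adjustment, which made 8 of 34 members at that limit, against 29.0% of all genes; *Rps16*, *Rps19* and *Rps23* are named because of this count.

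*Rps15*, a protein of the subunit's head that the precursor needs to leave the nucleus, was lowest. Its log2 ratios on pairs 1 to 4 were −0.24, −0.53, −0.36 and −0.29 (mean −0.36, SE 0.0783, adjusted p = 0.0508), a change of −21.8% from the WT level. All 4 arrays lay below 0, and a second probe of *Rps15* gave −0.32 (adjusted p = 0.0482). *Rps4x*, the X-linked gene of a protein of the subunit's body, had log2 ratios of −0.41, −0.19, −0.60 and −0.16 (mean −0.34, SE 0.0943, adjusted p = 0.0797). Pairs 1 and 3 were the lowest for *Rps4x*, and no array was above 0. *Rps15a*, also of the body, gave −0.53, −0.15, −0.41 and −0.13 (mean −0.31, SE 0.0921, adjusted p = 0.0939), again with pairs 1 and 3 lowest. A second probe of *Rps15a* gave −0.25 (adjusted p = 0.139) and was not called. *Rps9*, which lies near the channel where mRNA enters, gave −0.39, −0.11, −0.28 and −0.25 (mean −0.26, SE 0.0767, adjusted p = 0.0925). All 4 pairs of *Rps9* were below 0. *Rps2*, *Rps16* and *Rps19* also lay below 0 on all 4 arrays, with means of −0.25, −0.23 and −0.25 and adjusted p of 0.139, 0.114 and 0.136. The second probe of *Rps16* was called lower (−0.36, adjusted p = 0.0533). That made 7 of 34 members below 0 on all 4 arrays (against 13.9% of all genes) and 0 members above 0 on all 4 (against 21.4%).

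The highest means in *gastrocnemius* did not pass the test. *Rps24* read −0.20, 0.66, −0.04 and 0.56 (mean 0.25, adjusted p = 0.346) and *Rps14* read −0.30, 0.59, 0.17 and 0.28 (mean 0.18, adjusted p = 0.432). Pair 1 was below 0 and pair 2 above 0 for both genes. *Rps13* came next, with 0.04, 0.13, −0.01 and 0.35 (mean 0.13, adjusted p = 0.390). The number of calls in this muscle fell when any 1 pair was left out, and *Rps15* stayed called without pair 1 (−0.39, adjusted p = 0.0629). Without pair 2, pair 3 or pair 4, no member was called, and without pair 3 or pair 4 no gene on the array was. Without pair 1, 2 members were called, both lower, and 1 of these was among the 4 genes above. Of the 12615 genes, 1047 were higher and 722 lower without pair 1, and 799 and 554 without pair 2, beside 1244 and 698 with all pairs. Without pair 2 the means of *Rps15*, *Rps4x*, *Rps15a* and *Rps9* were −0.30, −0.39, −0.36 and −0.31. Their adjusted p then ran from 0.1 to 0.107, with none below the threshold.

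In TA, 4 members were higher in *Eif6*+/- muscle and 2 were lower. Those higher were *Rps24*, *Rps12*, *Rps13* and *Rpsa*, and those lower were *Rps2* and *Rps9*. The share called higher was 11.8%, against 8.98% of the 12387 genes tested in TA. The share called lower was 5.88%, against 7.28% of all genes. At an unadjusted p under 0.05 there were 11 members, against 29.1% of all genes. The median log2 ratio of the 34 genes was 0.07, with a range from −0.30 (*Rps2*) to 0.41 (*Rps24*), and that of all genes was 0.02. With loess normalization alone the members' median in TA was 0.01, beside 0.04 for all genes, so that the shift of the group above all genes depended on this step.

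*Rps24*, a protein of the body that is among those mutated in Diamond-Blackfan anemia, had the highest mean. Its log2 ratios on TA pairs 1 to 4 were 0.45, 0.48, 0.56 and 0.16 (mean 0.41, SE 0.0830, adjusted p = 0.0345), a level 32.8% above WT. *Rps12*, which forms part of the beak of the head, gave 0.69, 0.30, 0.31 and 0.14 (mean 0.36, SE 0.0942, adjusted p = 0.0592). The spread of *Rps12* came mostly from pair 1, and all 4 arrays were above 0, as they were for *Rps24*. *Rps13* gave 0.41, 0.34, 0.22 and 0.21 (mean 0.30, SE 0.0710, adjusted p = 0.0482). *Rpsa*, known also as the precursor of a laminin receptor, gave 0.20, 0.19, 0.34 and 0.14 (mean 0.22, SE 0.0700, adjusted p = 0.0970). The next brightest probes of *Rpsa* gave −0.07 and −0.34, and the latter was called lower (adjusted p = 0.0495). The second probes of *Rps12* (0.06, adjusted p = 0.607) and *Rps13* (0.09, adjusted p = 0.466) were not called. That of *Rps24* was called higher (0.27, adjusted p = 0.0557), and a dimmer one gave −0.02. All 4 arrays were above 0 for 14 members (41.2%, against 19.8% of all genes), and 10 of these, with means from 0.06 to 0.20, were not called. *Rps25*, for example, read 0.07, 0.05, 0.06 and 0.09.

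*Rps2*, whose protein lines the mRNA entry channel next to *Rps9*, was lowest in TA. It read −0.43, −0.09, −0.37 and −0.29 (mean −0.30, SE 0.0780, adjusted p = 0.0600), and its second probe gave −0.33 (adjusted p = 0.0457). *Rps9* read −0.16, −0.18, −0.23 and −0.23 (mean −0.20, SE 0.0658, adjusted p = 0.0993), which made it the member called lower in both muscles by its brightest probe. These 2 genes were also the only members below 0 on all 4 TA arrays (5.88%, against 15.6% of all genes). *Rps15* came next from the bottom with −0.47, −0.23, 0.03 and −0.09 (mean −0.19, adjusted p = 0.220), but its second probe gave −0.26 (adjusted p = 0.0934) and was thus called lower in both muscles. The TA calls depended on pair 1 most. Without pair 1 no member was called, without pair 2 there was 1 call, without pair 3 there were 2 and without pair 4 there were 6, of which 1, 2 and 4 were among the 6 genes above. Of the 12387 genes, 53 were higher and 15 lower without pair 1, and 336 and 195 without pair 2. Without pair 3 there were 735 and 450, and 1095 and 925 without pair 4, beside 1112 and 902 with all pairs. Without pair 1 the means were 0.40 for *Rps24*, 0.25 for *Rps12*, 0.26 for *Rps13*, 0.22 for *Rpsa*, −0.25 for *Rps2* and −0.21 for *Rps9*.

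**Figure D1:**
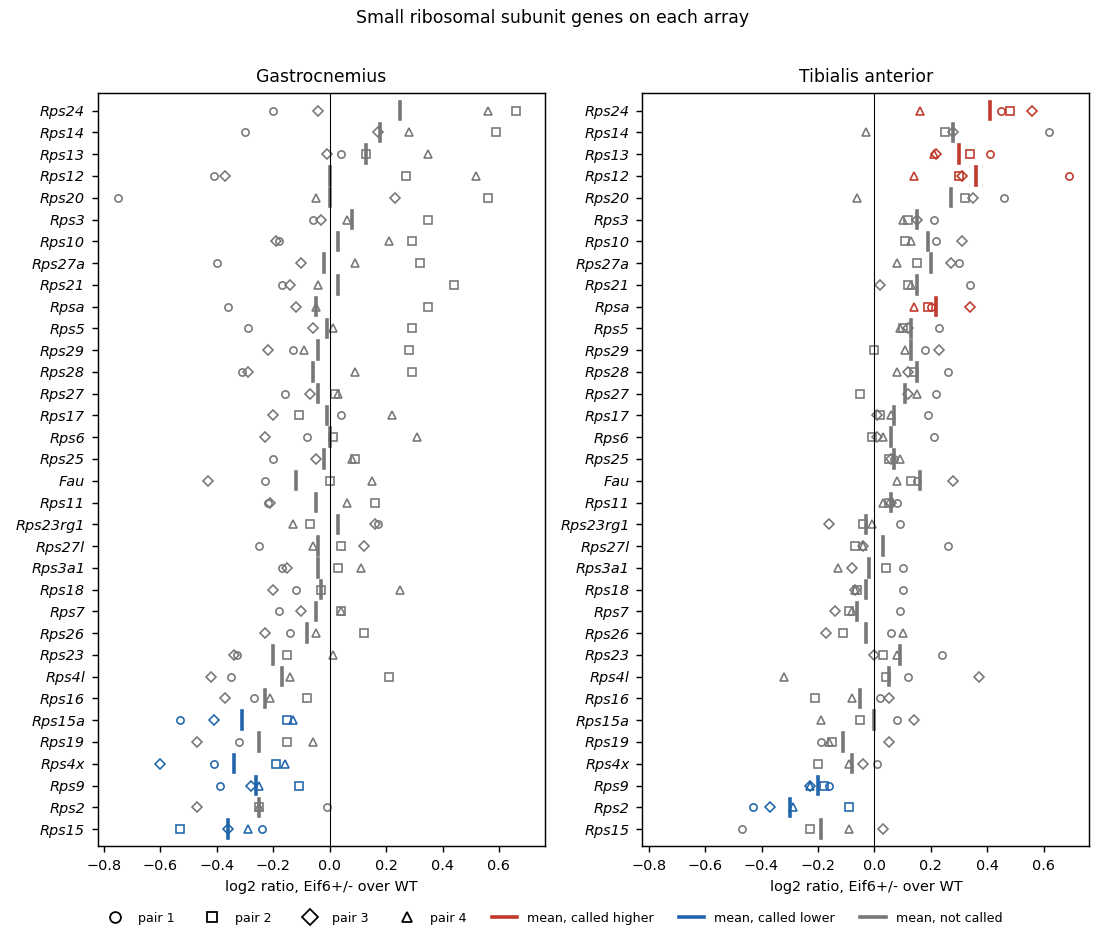
Log2 ratio of *Eif6*+/- over WT (horizontal axis) of the brightest probe of each of the 34 genes on each of the 8 arrays, with 1 open symbol per pair and a bar at the mean of the 4 pairs, coloured by its call at an adjusted p under 0.1. In *gastrocnemius* 3 and 4 genes are above 0 on pairs 1 and 3 and 23 and 19 on pairs 2 and 4, whereas in TA 19 to 30 genes are above 0 on each pair.

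No gene of the group was shown to differ between the muscles. The contrast of *gastrocnemius* minus TA called 0 of the 34 members, as it called 0 of 12206 genes (0%), with a lowest adjusted p of 0.636 among the members and of 0.270 among all genes. At an unadjusted p under 0.05 there were 4 members, *Fau*, *Rps15a*, *Rps23* and *Rps4x*, against 8.17% of all genes. The values of *Fau* and *Rps23* were chosen after they had been seen, to give all genes of that count. The difference was −0.30 for *Rps15a* (95% interval −0.57 to −0.03), −0.26 for *Rps4x* (−0.51 to 0.00), −0.29 for *Rps23* (−0.53 to −0.05) and −0.29 for *Fau* (−0.57 to −0.01). Among the genes called in TA it was −0.36 for *Rps12* (−0.82 to 0.11), −0.26 for *Rpsa* (−0.57 to 0.05), −0.17 for *Rps13* (−0.41 to 0.06) and −0.16 for *Rps24* (−0.58 to 0.26). *Rps9* (−0.06, interval −0.26 to 0.14) and *Rps2* (0.05, interval −0.21 to 0.31) had the differences closest to 0 among the called genes. The difference was below 0 for 30 of the 34 members, with a median of −0.15, whereas 47.8% of all genes were below 0, with a median of 0.01. The size of that shift depended on the normalization and on single arrays of *gastrocnemius*. With loess alone and with the deposited log2 ratios the median difference was −0.09, and 2 and 1 members had an unadjusted p under 0.05. That number was 2 with quantile normalization alone, 2 without background correction, 1 with normexp offset 0 and 0 with the scanner software's processed signals. Under these settings 899 to 1004 of all genes passed the same limit. The median difference was −0.08 without pair 1, −0.10 without pair 3 and −0.21 without pair 2 of *gastrocnemius*, and the number of members with an unadjusted p under 0.05 was 0, 0 and 11 in the same order. Of the 12206 genes, 745, 603 and 1819 passed that limit in the same order, beside 997 with all arrays. Leaving out *gastrocnemius* pair 4 gave 6 such members, 1028 of all genes and a median difference of −0.17. Without TA pairs 1 to 4 in turn the number of such members was 1, 3, 1 and 2 (854, 1150, 623 and 810 of all genes). The median difference was then −0.12, −0.15, −0.12 and −0.16.

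The order of the members was much alike in the muscles. Across the 34 genes, the mean log2 ratio in *gastrocnemius* correlated with that in TA with r = 0.76, and across all 12206 genes with r = 0.53. These are correlations across genes, which are not independent replicates, and the arrays of both muscles shared the slide and the orientation of the dyes. *Rps24* had the highest mean in both muscles, and *Rps15*, *Rps9*, *Rps2*, *Rps4x* and *Rps19* were among the lowest 6 in both.

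**Figure D2:**
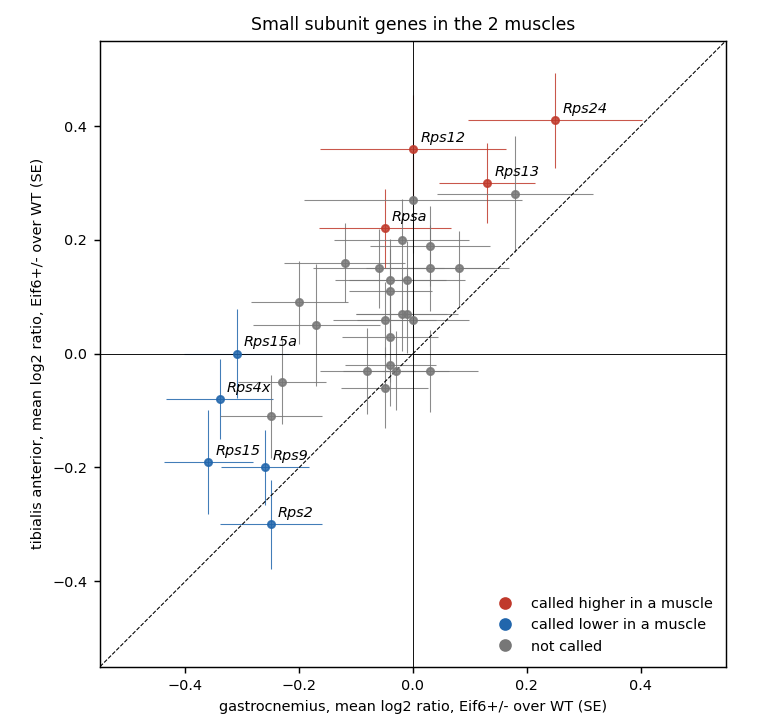
Mean log2 ratio of *Eif6*+/- over WT of the 34 genes in *gastrocnemius* (horizontal) and TA (vertical), with the standard error of each from 4 pairs and a dashed line where both are equal. Points are coloured if called in a muscle, and 30 of the 34 lie above the dashed line, with *Rps24* at the upper right and *Rps15*, *Rps9* and *Rps2* at the lower left.

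On some arrays most of the group lay on the same side of 0. The median log2 ratio of the 34 genes was −0.22, 0.06, −0.20 and 0.02 on *gastrocnemius* pairs 1 to 4, with 3, 23, 4 and 19 genes above 0. In TA the medians were 0.19, 0.03, 0.06 and 0.04, with 30, 19, 24 and 19 genes above 0. Of all genes, 50.8% to 55.1% were above 0 on an array, so that the counts of 19, on *gastrocnemius* pair 4 and TA pairs 2 and 4, were close to that share. On *gastrocnemius* pair 2 the members ran from −0.53 (*Rps15*) to 0.66 (*Rps24*). The median of all genes stayed between 0.00 and 0.04 on the 8 arrays. It was between 0.02 and 0.12 for the genes as bright as the dimmest of the 32 subunit proteins or brighter (1056 genes in *gastrocnemius*, 1055 in TA). Pairs 1 and 3 of *gastrocnemius* were thus low, and pairs 2 and 4 were not. *Rps20*, a protein of the head, spread most, with −0.75, 0.56, 0.23 and −0.05 in *gastrocnemius*.

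The proteins of the large subunit followed the same arrays. Of 54 such genes on the array 52 were tested, and their medians on *gastrocnemius* pairs 1 to 4 were −0.25, 0.01, −0.13 and 0.00, and 0.12, 0.06, 0.10 and 0.05 in TA. In *gastrocnemius* 8 of them were lower and 1 was higher (5.53% and 9.86% of all genes), and in TA 11 were higher and none was lower (8.98% and 7.28% of all genes). *Rpl3* (−0.75, adjusted p = 0.0421), *Rpl28* (−0.40, adjusted p = 0.0394) and *Rpl41* (−0.39, adjusted p = 0.0667) were lower in *gastrocnemius*. *Rpl23* was higher there (0.36, adjusted p = 0.0670) and also had the largest change in TA (0.56, adjusted p = 0.0119), ahead of *Rpl14* (0.43), *Rpl32* (0.38) and *Rpl4* (0.36). The proteins of the small subunit of the mitochondrial ribosome did not follow. All 31 were tested, with medians of 0.17, 0.07, 0.25 and 0.08 in *gastrocnemius* and 0.00, 0.03, −0.08 and −0.13 in TA. In *gastrocnemius* 5 were higher, among them *Mrps22* (0.52), *Mrps26* (0.39), *Mrps36* (0.33) and *Mrps18c* (0.31), and 1 was lower. In TA 2 were higher and 3 were lower, among them *Mrps22* (0.31), *Mrps27* (−0.40), *Mrps18a* (−0.31) and *Mrps15* (−0.29).

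Markers of other cells varied on the same arrays. Of 9 leukocyte markers 6 were tested in *gastrocnemius*, with a median log2 ratio of −1.18, −0.04, −1.96 and −0.19 on pairs 1 to 4 and a log2 ratio of their summed signals of −0.76, −0.18, −1.33 and −0.15. The brightest was *Csf1r*, and *Ptprc*, *S100a8* and *S100a9* were not well above background on all 4 arrays. Pairs 1 and 3, where the small subunit genes were low, thus had the lowest leukocyte medians and summed signals as well. *C1qa*, *C1qb*, *Lyz2* and *Csf1r* were lowest on these pairs. The other tested markers did not follow, with 0.35, −0.37, −0.32 and 0.03 for *Itgam* and −0.78, −0.91, −2.09 and −0.61 for *Cd74*. In TA the medians of 8 markers, with *Itgam* brightest and *S100a8* not tested, were −0.09, −0.55, 0.12 and −0.25, and the summed signals gave −0.06, −0.42, −0.05 and −0.10. The slow fibre markers, 7 of 7 tested and *Myl3* brightest, had medians of 2.71, −1.29, −0.26 and −0.34 in *gastrocnemius*, with summed signals at 3.22, −1.09, 0.19 and −0.18, so that pair 1 stood far from the others. In TA their medians were −0.20, −0.68, −0.08 and −1.35, with summed signals at 0.01, −0.52, −0.06 and −1.45. The 6 fibroblast markers, *Col1a2* brightest, had medians of −0.28, 0.17, −1.03 and 0.03 in *gastrocnemius* and 0.29, −0.69, 1.37 and −0.29 in TA. Their summed signals gave 0.02, 0.05, −1.36 and 0.32 in *gastrocnemius* and 0.26, −0.82, 2.13 and −0.20 in TA. By the protocol, excess fat or connective tissue had been cleaned off the muscles. The part of these cell types in the values of the small subunit genes was not tested, and in whole muscle fewer cells of a type and less RNA per cell cannot be told apart.

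The other marker lists are given by their median over genes of the mean log2 ratio. Skeletal muscle markers were all 8 tested in both muscles, with the muscle genes *Tnnt3* brightest in *gastrocnemius* and *Acta1* in TA, and had medians of 0.14 and −0.04. Fast fibre markers had medians of −0.17 in *gastrocnemius* and −0.08 in TA, endothelial markers −0.25 and −0.12, markers of myelinated nerve −0.10 and −0.29 and adipocyte markers −0.31 and 0.44. Satellite cell markers had −0.09 and 0.01, and red blood cell markers −0.27 and −0.67. In TA 4 of 5 red blood cell, 3 of 5 nerve, 3 of 7 slow fibre, 2 of 6 endothelial and 2 of 8 leukocyte markers were called lower (7.28% of all genes were), and 1 of 5 adipocyte and 1 of 3 satellite cell markers higher (8.98% of all genes). In *gastrocnemius* 2 of 5 adipocyte, 1 of 6 endothelial and 1 of 6 leukocyte markers were called lower (5.53% of all genes; 9.86% were higher). Of skeletal muscle markers 2 were lower in *gastrocnemius*, and 2 were higher and 2 lower in TA. Of 6 fast fibre markers 1 was higher and 1 was lower in each muscle, and no fibroblast marker was called.

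**Figure D3:**
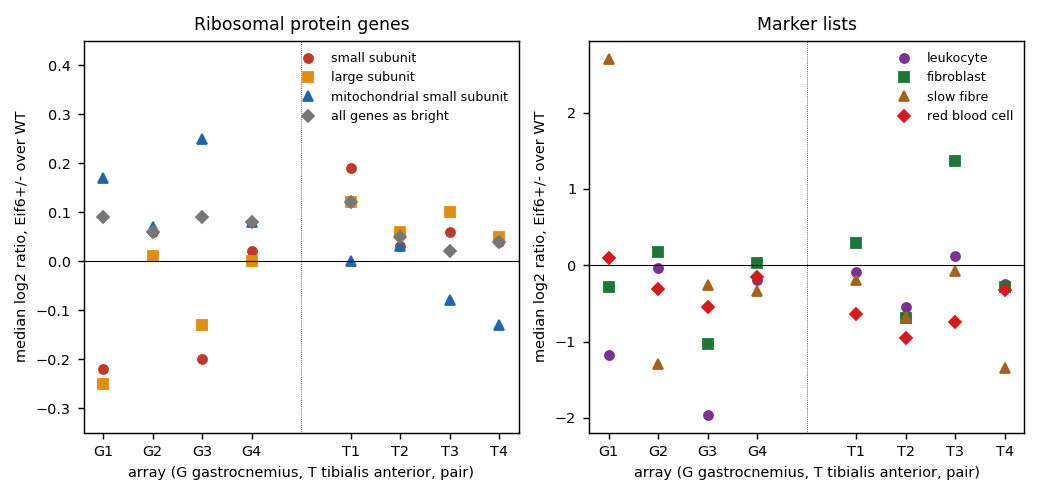
Median log2 ratio of *Eif6*+/- over WT of gene groups on each array (G for *gastrocnemius*, T for TA, with the pair number), with ribosomal protein genes on the left and marker lists on the right, on separate scales. Small and large subunit genes lie at −0.22 and −0.25 on G1 and −0.20 and −0.13 on G3, where the leukocyte markers read −1.18 and −1.96, and the slow fibre markers stand at 2.71 on G1.

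Probes of the same gene did not always give the same ratio. Of the 17 members with at least 2 tested probes, the brightest probe read higher than the next one in 14 in *gastrocnemius* (median difference 0.08) and in 13 in TA (median difference 0.06). Over all genes with 2 or more probes this held for 60.7% in *gastrocnemius* (median difference 0.06) and 64.6% in TA (median difference 0.08). The gap was widest for *Rps12* and *Rpsa* in both muscles. In TA the brightest probe of *Rpsa* gave 0.22, the next −0.07 and the one after that −0.34 (adjusted p = 0.0495), and in *gastrocnemius* they gave −0.05, −0.28 and −0.45 (adjusted p = 0.0373). A dim probe tested in TA only gave −0.01. A direction for *Rpsa* therefore depended on the probe, and it was called higher and lower in TA by different probes. In TA *Rps12* gave 0.36 and 0.06, *Rps13* 0.30 and 0.09, and *Rps24* 0.41, 0.27 (adjusted p = 0.0557) and −0.02. The probes of *Rps24* are assigned to different RefSeq transcripts, and whether those transcripts differed was not tested. For *Rps15* in *gastrocnemius* and *Rps2* in TA the second probe was called in the same direction as the first. In TA a dimmer probe of *Rps27a* (0.27, adjusted p = 0.0702) and of *Rps29* (0.22, adjusted p = 0.0854) was called higher where the brightest was not, and these are named after their values were seen. The second probe of *Rps15a* gave −0.25 in *gastrocnemius* (adjusted p = 0.139) and was not called, and *Rps4x* and *Rps9* have 1 probe each. Across the 34 genes the mean log2 ratio correlated with the mean log2 signal with r = 0.20 in *gastrocnemius* and r = 0.39 in TA, against 0.10 and 0.05 across all genes. The 8 members with a mean log2 signal of 15 or more all had means above 0 in TA, with a median of 0.24, beside 0.14 for the 175 genes of that brightness, of which 69.1% were above 0. In *gastrocnemius* 3 of these 8 were above 0, with a median of −0.01, beside 69.3% of the genes of that brightness, with a median of 0.18. The part of signal strength in the calls was not tested.

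**Figure D4:**
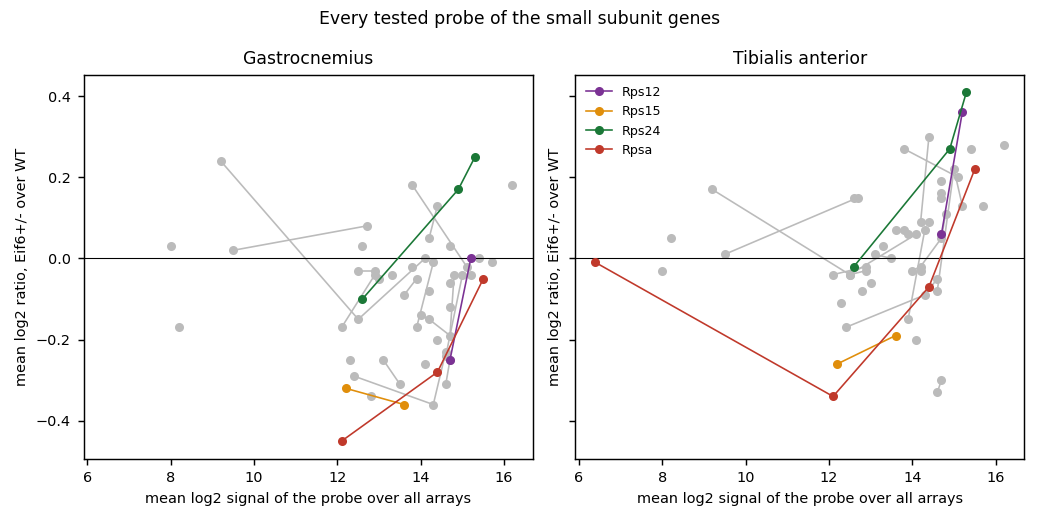
Mean log2 ratio of *Eif6*+/- over WT of every tested probe of the 34 genes (vertical) against the probe's mean log2 signal over the 8 arrays (horizontal), with probes of the same gene joined by a line. For *Rpsa*, *Rps12* and *Rps24* the line rises to the brightest probe in both muscles, in TA from −0.34 to 0.22 over the 3 bright probes of *Rpsa*, whereas the probes of *Rps15* lie below 0 throughout.

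The calls can also be given by place in the subunit. The head holds 14 of the 32 proteins and the body and platform 18, by textbook assignment made after the values were known. In *gastrocnemius* 1 head gene and 3 others were lower (5.53% of all genes were), with medians of −0.02 and −0.05. In TA 1 head gene and 3 others were higher and 0 and 2 were lower (8.98% and 7.28% of all genes), with medians of 0.13 and 0.06. No test of the places was made.

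Paralogues could be set side by side. *Rps27l*, a paralogue of *Rps27* that p53 induces, read −0.25, 0.04, 0.12 and −0.06 in *gastrocnemius* (mean −0.04, adjusted p = 0.808) and 0.26, −0.07, −0.04 and −0.04 in TA (mean 0.03, adjusted p = 0.844). *Rps27* itself had means of −0.04 (adjusted p = 0.740) and 0.11 (adjusted p = 0.361), and its 3 other probes gave −0.19, −0.15 and −0.14 in *gastrocnemius* and 0.05, −0.02 and −0.03 in TA. *Rps4l* had means of −0.17 in *gastrocnemius* (adjusted p = 0.365) and 0.05 in TA (adjusted p = 0.787), beside −0.34 and −0.08 for *Rps4x*. *Rps6*, which encodes the subunit protein that S6 kinases phosphorylate, read −0.08, 0.01, −0.23 and 0.31 in *gastrocnemius* (mean 0.00, adjusted p = 0.987) and 0.21, −0.01, 0.01 and 0.03 in TA (mean 0.06, adjusted p = 0.609). Its second probe gave −0.15 and −0.04, and its dimmest probe 0.24 and 0.17, none of them called. The p-values of these genes missed the threshold, which does not show that their levels were equal.

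The bases around the start of transcription are shown for the called members, because the start carries the TOP element. RefSeq promoter entries (GRCm38.p6, 250 bases before and 50 after each start) were matched for 26 of the 34 genes, in 31 entries, among them all 9 called genes. Each line gives 3 bases before the start and 27 from it, with CTTTC or CTTTT on either strand in capitals; the upstream one of the 2 entries of *Rps24* is shown, and *Rps6* is added as a gene with a C start in a pyrimidine run.
*Rps12* (chr10:23787183-23787212, minus strand): gccaccgccggcCTTTTcccctgccgccgc
*Rps13* (chr7:116334164-116334193, minus strand): cggtgagtggcgtcacttcctgtgcggctt
*Rps15* (chr10:80292428-80292457, plus strand): cgcgataactgcgcaagcgcagcccgtact
*Rps15a* (chr7:118116121-118116150, minus strand): catcttccctcgccggtgagtgagtgtttg
*Rps2* (chr17:24720060-24720089, plus strand): tctcgcgcttcttggagcactataaattgt
*Rps24* (chr14:24490675-24490704, plus strand): tccttccttgcgcgttgatatgattggtcg
*Rps4x* (chrX:102189365-102189394, minus strand): ggagcaacccaggctccagcgcgcgcgcag
*Rps6* (chr4:86857341-86857370, minus strand): ggcctCTTTTtcgtgacgcctcccaggcgc
*Rps9* (chr7:3704038-3704067, plus strand): ctctttgtctcgggcctgagttcgtaggtg
*Rpsa* (chr9:120127763-120127792, plus strand): aggacgtcatttccggccgcccgtcCTTTC
Of these, *Rps15a* and *Rps6* start with a C in a run of at least 5 pyrimidines. Such a start was found in 7 of 31 member entries (22.6%), those of *Fau*, *Rps10*, *Rps15a*, *Rps18*, *Rps21*, *Rps27* and *Rps6*, and in 2.51% of all 32851 entries. Over the whole 300 bases and both strands, CTTTC stood in 80.6% of member entries and 57.3% of all entries, and CTTTT, which overlaps it in its first 4 letters, in 45.2% and 53.6%. A match is a description of the letters only, and annotated starts may miss the true first base.

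Genes that make, carry and use the subunit were called at shares below and above that of all genes, which was 15.4% in *gastrocnemius* and 16.3% in TA for both directions together. In the nucleolar processome that builds the 40S precursor, 2 of 42 tested genes were higher in *gastrocnemius*, *Esf1* (0.58, adjusted p = 0.0559) and *Ddx49* (0.32), and none was lower (median 0.06). In TA 3 of 41 were higher and 3 were lower (median 0.03), among them *Rrp9* (−0.49, adjusted p = 0.0349), *Esf1* (0.39), *Tbl3* (−0.33) and *Nol11* (0.29). Of 17 late maturation factors, *Csnk1d*, a kinase acting on the precursor, and *Ltv1*, its substrate on the precursor, were higher in both muscles. *Csnk1d* had 0.51 (adjusted p = 0.0319) in *gastrocnemius* and 0.49 (adjusted p = 0.0198) in TA, and *Ltv1* had 0.28 (adjusted p = 0.0777) and 0.31 (adjusted p = 0.0543). No late factor was lower, and the list's medians were 0.00 and 0.06. Of 6 escort and surface proteins, *Serbp1*, which sits on idle ribosomes, was lower in both muscles, with −0.34 in *gastrocnemius* (adjusted p = 0.0458) and −0.34 in TA (adjusted p = 0.0391). *Pdcd2*, a chaperone of *Rps2*, was higher in *gastrocnemius* (0.23, adjusted p = 0.0965). *Rack1*, which is bound to the head, was higher in TA, with 0.60, 0.31, 0.43 and 0.35 on pairs 1 to 4 (mean 0.42, adjusted p = 0.0251).

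The counts of regulators stand beside 9.86% of all genes called higher and 5.53% lower in *gastrocnemius*, and 8.98% and 7.28% in TA. Among regulators, 7 S6 kinase genes were tested. *Rps6kb1*, which encodes the main kinase of *Rps6*, was higher in TA (0.42, adjusted p = 0.0244), whereas *Rps6kb2* was lower in both muscles (−0.34 and −0.31). *Rps6ka4* (−0.40) and *Rps6ka3* (−0.28) were lower in *gastrocnemius*. Of 13 genes that control TOP mRNAs, 3 were higher and 1 was lower in *gastrocnemius*, and of 12 tested in TA 4 were higher and 1 was lower. *Rheb*, the activator of mTORC1, was higher in *gastrocnemius* (0.47, adjusted p = 0.0309) and TA (0.44, adjusted p = 0.0341). *Rptor* (0.43) and *Tial1* (0.32) were higher and *Pabpc1* lower (−0.49) in *gastrocnemius*, and in TA *Larp1* (0.37, adjusted p = 0.0299) and *Larp1b* (0.36) were higher and *Mtor* lower (−0.27). *Pabpc1* read −0.45, −0.59, −0.86 and −0.06 on *gastrocnemius* pairs 1 to 4. It was the gene not tested in TA, where it was not well above background on all 4 arrays. Of 22 factors that load the 40S subunit, 2 were higher in *gastrocnemius*, the eIF3 subunits *Eif3d* (0.28) and *Eif3k* (0.25), and none was lower. In TA 4 were higher and 2 were lower, among them *Eif3k* (0.43, adjusted p = 0.0280), *Eif3i* (−0.36), *Eif3h* (0.31) and *Eif3b* (−0.28). The medians of these lists were −0.19, 0.02 and 0.04 in *gastrocnemius* and −0.22, 0.12 and 0.07 in TA, for kinases, TOP control and loading factors.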

How the data were processed

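The authors deposited, for each of 8 arrays, the scanner software's spot intensity (not normalized), local background, quality marks and its own background-subtracted, dye-normalized log10 ratio of Cy5 to Cy3. A second deposited table gives log2 ratios per spot and matched loess-normalized uncorrected intensities computed here (r of at least 0.99996), so that its scale, centring and direction are known. By pair, its columns had medians of 0.00257, 0.000831, −0.00441 and 0.00375 in *gastrocnemius*. In TA they were 0.00138, −0.000366, 0.00288 and 0.00212. The methods name Cy3 labelling alone, quantile normalization and SAM; the dyes were taken from the sample labels.

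Median intensities of 62976 spots were corrected with normexp (offset 50) against median local background (the files give no mean signal), put through loess within arrays (no weight on control spots) and then through quantile normalization of the 16 channels. Control spots and 233 to 318 outlier spots per array were left out, and spots with the same probe were averaged. Tests in a muscle took the probes that each of its 4 arrays had well above background in Cy5, Cy3 or both (23802 in *gastrocnemius*, 23391 in TA, 22765 in both). RefSeq accessions named 27235 of 55681 probes through a table of assembly GRCm38.p6, used for names and promoter sequences only. The brightest probe stood for a gene, and others are given where they differ. Log2 ratios were tested against 0, and *gastrocnemius* minus TA as a contrast over all 8 arrays, by eBayes after lmFit in limma 3.58.1 (R 4.3.3; Python 3.11.15 and matplotlib 3.10.9 for sequences and figures). The fits and SAM, but not the steps before them, were also tested on simulated log2 ratios. The members and lists were chosen with earlier results of these data known, so lists have counts and medians and no test. A gene that meets the rule is not reported here and is in no count or median of the members. Named were all called members, the 3 highest and 3 lowest per muscle, *Rps27* and *Rps27l*, *Rps4x* and *Rps4l*, *Rps6*, and from each pathway list up to 4 called genes of largest size per muscle. *Rps20* and *Rps25* were named in addition, after their values had been seen. Protein sequences were not used here. Alternatives were other normalizations, background corrections, filters, tests and probes, and each array left out.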

Additional observations from a re-analysis of the deposited data

Results flagged for a closer look

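Of the 68 groups of 4 values examined (34 genes in 2 muscles), 2 held an array far from the other 3, where chance gives about 5%. *Rps18* in TA had a log2 ratio of 0.10 on pair 1, with the other 3 pairs between −0.07 and −0.06. *Rps27l* in TA had 0.26 on pair 1, with the others between −0.07 and −0.04. Neither gene was called. No member was shown to differ between the muscles by the contrast, and none lay on one side of 0 on all 4 arrays of a muscle and on the other side on all 4 of the other.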

How the results depend on the processing

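The counts of called members were sensitive to the processing, and the cause was not tested. In *gastrocnemius* the 4 calls became 1 with normexp offset 0, 2 without background correction, 0 with the scanner software's processed signals, 0 at an adjusted p under 0.05, 1 with SAM at an FDR of 0.05 and 7 in 1 fit over all 8 arrays. All these calls were lower. Of the 12615 genes, 1244 were higher and 698 lower in the main fit, 935 and 517 with offset 0 and 1249 and 717 without background correction. With processed signals there were 813 and 395, and 1842 and 1133 of 12206 genes in 1 fit over all 8 arrays. There were 628 genes called at an adjusted p under 0.05 and 1706 with SAM at an FDR of 0.05. In TA the 6 calls became 1 with offset 0, 1 with processed signals, 2 at an adjusted p under 0.05, 3 with SAM at an FDR of 0.05, 10 with SAM at 0.1 and 13 with a t-test of the log2 ratios against 0 at an unadjusted p under 0.05. The call with offset 0 was higher and the one with processed signals was lower. Of the 12387 genes, 1112 were higher and 902 lower in the main fit, 686 and 530 with offset 0 and 512 and 332 with processed signals. There were 837 genes called at an adjusted p under 0.05, 948 and 2604 with SAM at 0.05 and 0.1, and 2556 with the t-test. That t-test with Benjamini-Hochberg adjustment called 0 members in either muscle. It called 0 of all genes in *gastrocnemius* and only 14 higher and 10 lower in TA, so its counts do not set the members apart. With 1 array left out the counts ranged from 0 to 2 in *gastrocnemius* and from 0 to 6 in TA. The other alternatives for these counts stayed within 1.5 times. The members' median stayed between −0.12 and 0.00 in *gastrocnemius* and between 0.01 and 0.09 in TA. *Rpsa* in TA turned from 0.22 to −0.05 (adjusted p = 0.657) with the mean over its probes and to −0.07 (adjusted p = 0.510) with the next brightest probe, an alternative added after seeing the data; its adjusted p ranged from 0.0537 to 0.657. No other called member changed sign under the 15 alternatives. The difference between muscles called 0 members under each alternative run for it, which left out SAM, the t-test and the next brightest probe. No label says whether a pair number marks the same mice in both muscles. Deviations from the muscle mean correlated with −0.116, −0.00524, −0.362 and 0.106 between same-numbered arrays over 12206 genes. Between arrays of different numbers the correlations ran from −0.308 to 0.314. With so few arrays, each set against its muscle's mean, these values cannot decide the pairing. With the replicate block 0 members were called and 1 had an unadjusted p under 0.05. The number of arrays, 4 per muscle, limits the precision, and the dyes were not swapped.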
